A study of Mus musculus with 10 samples.

Results

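The genes described here are 8 transcription factor genes of mesenchymal cells, taken by their symbols from a table of chromatin accessibility: Twist1, Twist2, Prrx1, Prrx2, Snai1, Snai2, Zeb1 and Zeb2. All 8 of 8 symbols were found, among 21965 genes in the table. They form 4 paralog pairs. Twist1 and Twist2 are basic helix-loop-helix factors, Prrx1 and Prrx2 are paired-type homeobox factors, and Snai1, Snai2, Zeb1 and Zeb2 are zinc finger repressors.

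As background, these factors hold cells in a mesenchymal, fibroblast-like state. Snail and Zeb proteins bind E-box sequences in epithelial genes such as the gene of E-cadherin and recruit corepressors to them, while Twist proteins pair with E proteins to bind E-boxes, and Prrx proteins mark the mesenchyme of limb and face. When fibroblasts are turned into pluripotent cells, they pass through a mesenchymal-to-epithelial transition in which this program is shut down and epithelial genes come on. Open chromatin at a gene's start is one of the features that accompany its use, but it is not a measure of its RNA or protein.

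The assay was ATAC-seq, which reads open DNA by where a transposase can insert adapters, and the cells were mouse embryonic fibroblasts (MEFs) of strain label ICR. The MEFs came from E13.5 embryos with a GFP transgene under the Oct4 promoter, were infected with pMXs retroviruses and were kept in mESC medium, and about 50000 living cells went into each library. By their labels, libraries carried Sox2 alone, Klf4 alone, Oct4 alone or the Oct4 L80A mutant alone (Oct4-L80A). Others carried the combination of Sox2, Klf4 and Oct4 (SKO), or the combination with L80A for Oct4 (SKO-L80A). A further library had SKO with shBrg1, a short hairpin RNA against the chromatin remodelling ATPase Brg1 (SKO+shBrg1). The remaining ones were SKO-L80A in medium with 50 µg/ml vitamin C (SKO-L80A+Vc), SKO-L80A with Gadd45a (SKO-L80A+Ga), and the Flag control virus (Flag). The sources used here do not give the days between infection and harvest. Each of the 10 conditions had 1 library, and the table gives 2 columns of density signal for each, written below as column 1/column 2. The columns were treated as repeat measurements of 1 sample, so no difference below has a replicate error, and no significance test could be made.

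The signal over the genes of Sox2, Klf4 and Oct4 was read as a check of the labels. The library labelled Oct4 had 62.9/55.2 over the Sox2 gene, against 2.73/5.12 in Flag, and 30.8/24.2 over Pou5f1, the gene of Oct4, against 0.812/1.12 in Flag. It is therefore called the library labelled Oct4, and it is counted with the single-factor libraries below by its label only. Oct4-L80A had 19.0/49.6 over Pou5f1 and 2.37/5.47 over Sox2. Gadd45a had 36.6/41.5 in SKO-L80A+Ga, not above its 37.3/52.1 in SKO-L80A, so on the deposited scale no gain over its gene was seen. The median difference of all genes was -0.25 (log2) between these libraries, and a gain relative to it was not read. Of 10 fibroblast markers, such as the collagen gene Col1a1 and the mesenchymal filament gene Vim, 6 to 8 reached the median signal of the table in every condition, and none was at 0. Their summed signal ran between 72.9 and 216 in the 9 factor conditions, against 116 and 174 in Flag. The 8 epithelial markers summed to between 11.4 and 47.1, against 10.3 and 15.7 in Flag, with at most 2 at the median signal and none at 0, so the fibroblast label of the Flag library went with its markers. Endothelial markers (5 genes) summed to between 7.24 and 20.8, against 8.53 and 11.8 in Flag, blood markers (5 genes) to between 10.7 and 47.4, against 13.98 and 20.4, and neural markers (5 genes) to between 17.2 and 64.8, against 21.4 and 38.1. At the median signal stood 0 to 1 of the endothelial, 0 to 3 of the blood and 2 to 4 of the neural markers, with 2 neural ones in Flag. The median neural marker had 0.95 to 1.29 times the median of all genes, against 1.29 to 1.70 for fibroblast markers. The part of cell mixture in the results was not tested, and in such bulk libraries fewer cells of a type cannot be told apart from less open chromatin per cell.

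The value of a gene behaved as a property of the region around its start. Adjacent genes of the table whose annotated starts lay under 200 bases apart (401 pairs) had a median absolute log2 difference in mean signal of 6.66e-05, and at a distance of 1000 to 2000 bases (85 pairs) it was 0.00219. At 2000 to 5000 bases (254 pairs) it was 0.86, and beyond 20000 bases (8800 pairs) it was 1.43. Genes that share a start region thus share a value. None of the 8 genes had such a close neighbour in the table. By the gap between annotated gene spans, not between starts, the nearest was Ptges, 8220 bases from Prrx2.

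Start regions were read from the RefSeq promoter table of GRCm38.p6 (build mm10), which held 6 of the 8 genes. They are shown because the genes differ widely in a base feature of this region, the CG dinucleotide, printed in capitals. In the 250 bases before the start, the number of CG was 27 in Snai1, 23 in Twist2, 21 in Prrx2, 18 in Twist1, 9 in Zeb2 and 4 in Prrx1, against a median of 6 in all 32851 promoters. The G and C share was 70.0% in Prrx2 and Snai1, 68.8% in Twist2, 62.4% in Twist1, 49.6% in Zeb2 and 47.6% in Prrx1, against 52.4% at the median of all promoters. Zeb2 has 4 starts in that table, of which the first listed was used, and the others had 6, 6 and 14 CG. The sequences of the pair Twist1 (chr12:33957421-33957670, plus strand) and Twist2 (chr1:91801211-91801460, plus strand), and of Snai1 (chr2:167537945-167538194, plus strand), whose signal was most often the highest, run 5′ to 3′ and end at the base before the start.
Twist1: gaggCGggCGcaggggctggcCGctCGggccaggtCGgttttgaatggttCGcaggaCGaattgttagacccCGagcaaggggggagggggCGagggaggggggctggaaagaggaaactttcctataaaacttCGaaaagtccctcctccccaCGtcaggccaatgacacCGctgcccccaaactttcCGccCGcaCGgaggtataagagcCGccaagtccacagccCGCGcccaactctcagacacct
Twist2: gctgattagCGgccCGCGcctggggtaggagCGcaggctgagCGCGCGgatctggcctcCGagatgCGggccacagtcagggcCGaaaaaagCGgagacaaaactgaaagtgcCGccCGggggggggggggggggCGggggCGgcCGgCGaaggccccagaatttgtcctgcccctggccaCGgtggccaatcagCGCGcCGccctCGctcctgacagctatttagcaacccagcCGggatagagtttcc
Snai1: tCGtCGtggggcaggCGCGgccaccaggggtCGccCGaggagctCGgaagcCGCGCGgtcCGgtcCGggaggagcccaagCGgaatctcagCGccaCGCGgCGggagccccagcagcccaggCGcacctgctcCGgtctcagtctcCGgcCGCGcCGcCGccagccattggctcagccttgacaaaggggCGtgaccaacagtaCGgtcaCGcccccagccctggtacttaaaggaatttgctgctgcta

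At the starts used, the Prrx paralogs differed in this feature, with 21 CG in Prrx2 and 4 in Prrx1, and these RefSeq starts lie inside the annotated genes. The gene edge is at 30845064 for Prrx2 and at 163315145 for Prrx1, so the windows lie at different distances from it. For them only short stretches are shown. The 30 bases before the start, with CG in capitals, were taken at chr2:30845337-30845366 (plus strand) for Prrx2 and at chr1:163313651-163313680 (minus strand) for Prrx1.
Prrx2: ggggagggcagaaagttCGggtcccCGacc
Prrx1: gttttcttaatcagactgttttttCGgtcc

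Among short motifs read on both strands of the 250 bases, the CACCC box that Klf-type factors are known to bind was found in 2 of 6 genes, Prrx2 and Zeb2, and in 52.0% of all promoters. Prrx2 had 2 of them, at bases 246 to 242 and 184 to 180 before the start, here in capitals within 30 bases each (chr2:30845117-30845146 and chr2:30845171-30845200, plus strand).
Prrx2, distal: tcccCACCCatcacctccagagactctggt
Prrx2, proximal: acgggatttgggCACCCcctaaactgcttc

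The E-box CAGGTG, the type to which Snail and Zeb proteins bind, was present in 1 of the 6 genes, and in 17.2% of all promoters. That gene was Snai1, which carries it at bases 126 to 121 as cacctg on the printed strand. The same 6 bases were the one match of the general E-box CANNTG, which 66.2% of all promoters hold. The octamer ATGCAAAT, known as an Oct4 site, was in 0 of 6 genes and in 1.60% of promoters, and the Sox-type ACAAAG was in 1 of 6, Snai1 (bases 69 to 64), and in 16.5%. TGANTCA, the AP-1 site, was in 0 of 6 and in 6.75%. The CCAAT box was in 4 of 6 (33.8% of promoters), the GC box GGGCGG in 3 of 6 (32.7%), and TATAAA in 1 of 6, Twist1 (12.4%). For Zeb2 the tallies depend on the start: the 4th listed one has 2 AP-1 sites and 1 Sox-type site, and starts 2 and 3 lack the CACCC and CCAAT boxes of the first. These are matches of letters in one window and say nothing of binding in these cells.

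The signal differed between the genes, with the same 4 highest in every column, while the order within them and among the rest changed. On the density scale of the table, averaged over all 20 columns, Snai1 had 18.4, Snai2 16.9, Twist1 15.5 and Twist2 11.3, followed by Zeb2 with 7.86, Prrx2 with 6.90, Zeb1 with 5.84 and Prrx1 with 5.65. Snai1, Snai2, Twist1 and Twist2 were the highest 4 of the 8 genes in 20 of 20 columns, and Snai1 was the highest gene in 14 and Snai2 in 4. The mean of Snai1 stood at percentile 78.1 of all genes, and that of Prrx1 at percentile 44.1. The sources used here do not say whether the density was divided by a length, so this order holds on the deposited scale. A signal of 6.92, which is the table's median value, was reached by Twist1, Snai1 and Snai2 in 20 of 20 columns and by Twist2 in 19. Zeb2 reached it in 13 columns, Prrx2 in 9, Prrx1 in 4 and Zeb1 in 3.

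**Figure D1:**
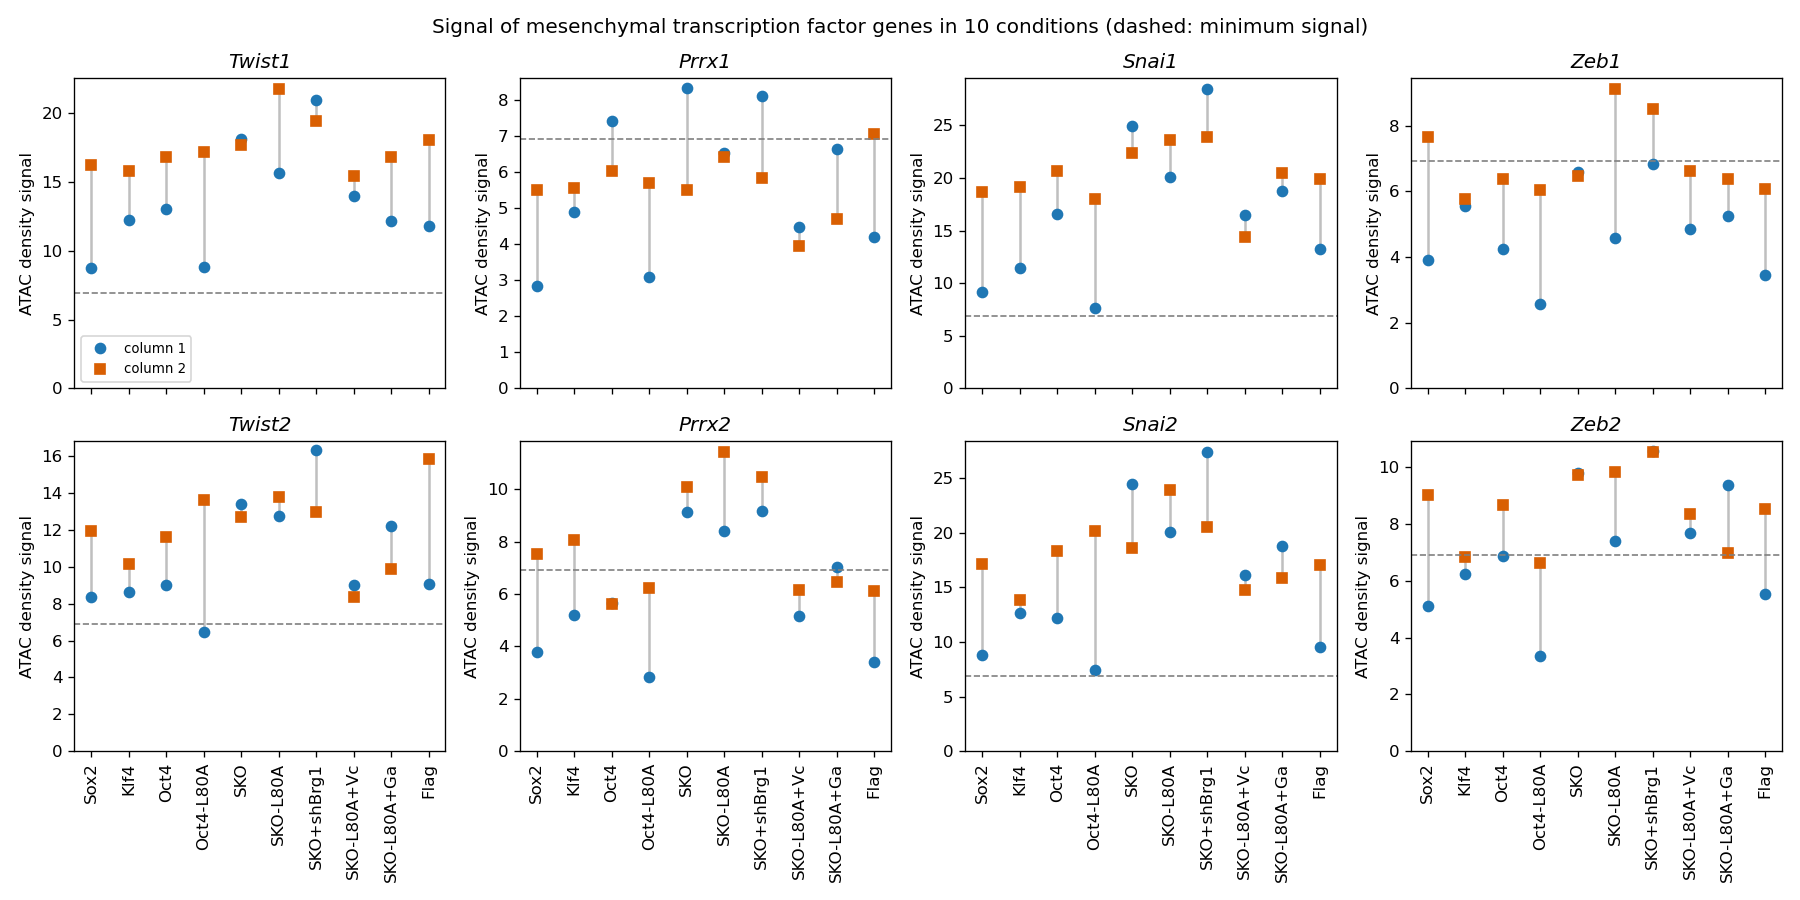
Deposited ATAC density signal (vertical axis, arbitrary units of the table, starting at 0) of the 8 genes in the 10 conditions (horizontal axis), with paralogs above each other. Circles and squares are the 2 columns of a condition, joined by a line, and the dashed line is the minimum signal of 6.92. Prrx2 lies above both Flag columns in both columns of SKO, SKO-L80A, SKO+shBrg1 and SKO-L80A+Ga, as does the median signal of all genes (not drawn). The Prrx1 columns of all 9 factor conditions overlap those of Flag.

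A difference between conditions was taken as log2 of the signal plus 0.138, the 10th percentile of all values above 0, averaged over both columns. To be called higher or lower, a gene needed a difference of at least 2-fold (1 on the log2 scale), with 6.92 or more as the higher of the 2 mean signals. The differences of all genes were not centred on 0, so each difference is given a second time relative to their median, called relative to all genes below. That median stood 0.50 above Flag in SKO, 0.52 above in SKO-L80A, 0.62 above in SKO+shBrg1, 0.24 above in SKO-L80A+Ga and 0.18 above in the library labelled Oct4 (log2). In Oct4-L80A it stood at -0.16, in Sox2 at -0.09, in Klf4 at 0.03 and in SKO-L80A+Vc at 0.02. On the deposited scale, the median signal of all genes was itself above both Flag columns (4.45/7.55) in some conditions. These were SKO (10.6/8.89), SKO-L80A (8.84/10.9), SKO+shBrg1 (11.8/9.66) and SKO-L80A+Ga (8.17/7.59). Columns clear above Flag on that scale are thus not particular to a gene there, and the share of all genes showing them was not counted. Where levels instead of differences are compared across conditions, they are given as a level over the median signal of the same column (log2), which need not give the same order. The 9 comparisons with Flag share its single library.

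Few changes passed this rule. Of 112 pairs of a gene and a comparison (8 genes in 14 comparisons), 3 were called higher and 0 lower, and 0 were called in either direction once the shift of all genes was taken out. All 3 calls were Prrx2 against Flag: in SKO, where 1 of 8 genes was called against 6.24% of all genes, in SKO-L80A, where 1 of 8 was called against 6.28%, and in SKO+shBrg1, where 1 of 8 was called against 10.1%. A share of 1 in 8 is the smallest above 0 that the list allows, and it reads near the background. In each of these 3 comparisons 0 of 8 were lower, against 0.0182% of all genes.

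The 6 other comparisons with Flag gave 0 of 8 genes called in either direction. Of all genes, 0.0592% were called higher and 0.137% lower in Sox2, 0.751% and 0.141% in Klf4, and 0.36% and 0.0273% in the library labelled Oct4. The shares were 0.00455% higher and 0.041% lower in Oct4-L80A, 0.87% and 0.146% in SKO-L80A+Vc, and 1.64% and 0.0182% in SKO-L80A+Ga. The median difference of the 8 genes followed that of all genes: relative to all genes it was -0.01 in SKO, -0.14 in SKO-L80A, 0.02 in SKO+shBrg1, 0.09 in SKO-L80A+Vc and 0.00 in SKO-L80A+Ga. In the single-factor libraries it was -0.06 in Sox2, -0.09 in Klf4, -0.00 in the library labelled Oct4 and -0.14 in Oct4-L80A. In none of the 9 factor conditions did the median of the 8 genes lie more than 0.14 from that of all genes.

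Relative to all genes, where 0 of 8 were called in every comparison, a smaller share of all genes was called higher in the 5 combined conditions. The shares were 1.34% higher and 0.0865% lower in SKO, 1.31% higher and 0.0819% lower in SKO-L80A and 1.35% higher and 0.0911% lower in SKO+shBrg1. They came to 0.829% higher and 0.15% lower in SKO-L80A+Vc and 0.888% higher and 0.0455% lower in SKO-L80A+Ga. For single factors they were 0.0637% higher and 0.105% lower in Sox2, 0.715% higher and 0.155% lower in Klf4, 0.191% higher and 0.0683% lower in the library labelled Oct4 and 0.00911% higher and 0.00911% lower in Oct4-L80A.

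**Figure D2:**
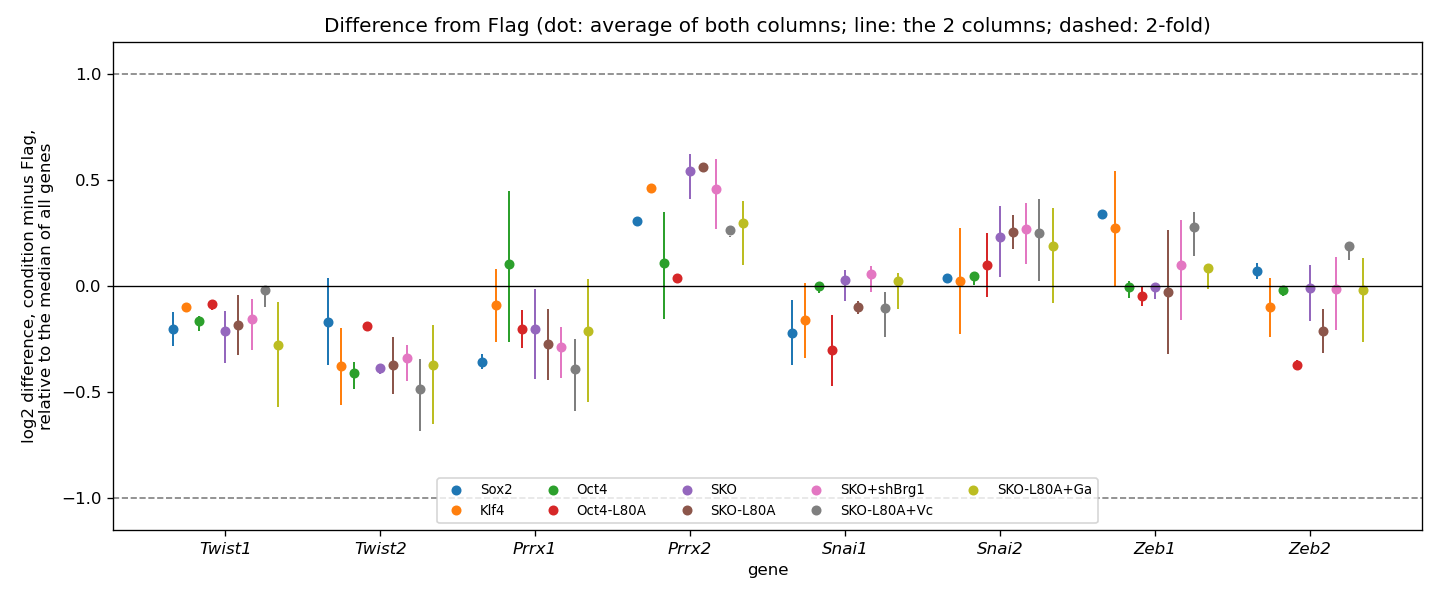
Log2 difference from Flag relative to the median of all genes (vertical axis) of each of the 8 genes (horizontal axis) in the 9 factor conditions, in colour. Dots are the average of both columns, lines join the 2 columns, and dashed lines mark 2-fold. No dot reaches 2-fold, the Prrx2 dots run between 0.04 and 0.56 (in the library labelled Oct4 the value is -0.02 after quantile normalisation), and the Twist2 dots between -0.48 and -0.17.

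Twist1 (ENSMUSG00000035799, chromosome 12, 33957671 to 33959831 in GRCm38.p6), needed in mice for cranial neural tube closure and limb growth, had 8.72/16.2 in Sox2, 12.2/15.8 in Klf4, 13.0/16.8 in the library labelled Oct4 and 8.79/17.2 in Oct4-L80A. It had 18.1/17.7 in SKO, 15.7/21.8 in SKO-L80A, 21.0/19.4 in SKO+shBrg1, 14.0/15.4 in SKO-L80A+Vc and 12.1/16.8 in SKO-L80A+Ga, against 11.8/18.0 in Flag. SKO+shBrg1 was the one condition with both columns above both Flag columns, and those of the other 8 overlapped Flag. As a level over the median signal, Flag was the highest of the 10 conditions, and relative to all genes the difference from Flag ran between -0.28 in SKO-L80A+Ga and -0.02 in SKO-L80A+Vc. In Oct4-L80A the sign depended on the scaling: -0.09 relative to all genes, but 0.02 after quantile normalisation.

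Twist2 (ENSMUSG00000007805, chromosome 1, 91801461 to 91848034), a regulator of dermal and bone precursor cells, had 8.37/11.9 in Sox2, 8.62/10.2 in Klf4, 9.01/11.6 in the library labelled Oct4 and 6.44/13.6 in Oct4-L80A. The combined conditions gave 13.4/12.7 in SKO, 12.8/13.8 in SKO-L80A, 16.3/13.0 in SKO+shBrg1, 9.02/8.38 in SKO-L80A+Vc and 12.2/9.88 in SKO-L80A+Ga, against 9.07/15.9 in Flag. Both columns of SKO-L80A+Vc were below both Flag columns, no condition was above them, and 8 overlapped. Relative to all genes, Twist2 had the lowest difference of the 8 genes in 7 of 9 factor conditions. Its value was -0.17 in Sox2, -0.38 in Klf4, -0.41 in the library labelled Oct4 and -0.19 in Oct4-L80A. In the combined conditions it was -0.38 in SKO, -0.37 in SKO-L80A, -0.34 in SKO+shBrg1, -0.48 in SKO-L80A+Vc and -0.37 in SKO-L80A+Ga. These values stayed below 0 under 4 scalings, with a range of -0.55 to -0.04, and the 2 columns of Sox2 differed in sign (0.04 and -0.37). None reached 2-fold, and since all 9 use the same Flag library, they are not independent of each other.

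Prrx1 (ENSMUSG00000026586, chromosome 1, 163245119 to 163315145), a homeobox factor of limb and craniofacial mesenchyme, had 2.86/5.51 in Sox2, 4.89/5.57 in Klf4, 7.43/6.04 in the library labelled Oct4 and 3.11/5.72 in Oct4-L80A. SKO gave 8.34/5.51, SKO-L80A 6.55/6.44, SKO+shBrg1 8.13/5.85, SKO-L80A+Ga 6.64/4.71 and SKO-L80A+Vc 4.48/3.96, against 4.22/7.07 in Flag. The columns of all 9 factor conditions overlapped those of Flag. As a level over the median signal, Flag was again the highest condition. Relative to all genes the difference ran between -0.39 in SKO-L80A+Vc and 0.10 in the library labelled Oct4. That last value, whose sign goes against the order of the levels, turned to -0.02 after quantile normalisation. The value of Klf4, -0.09, turned to 0.00 relative to the median of the 11447 genes with a mean signal of at least 6.92.

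Prrx2 (ENSMUSG00000039476, chromosome 2, 30845064 to 30881251), which overlaps in function with Prrx1 in mouse limb and face development, was the 1 gene of the 8 called higher, in a share near the background. It had 9.14/10.1 in SKO, 8.42/11.4 in SKO-L80A and 9.18/10.5 in SKO+shBrg1, against 3.42/6.11 in Flag. With 5.16/6.14 in SKO-L80A+Vc and 7.03/6.45 in SKO-L80A+Ga, the 2 other combined conditions lay closer to Flag. The single-factor libraries had 3.78/7.53 in Sox2, 5.21/8.07 in Klf4, 5.64/5.64 in the library labelled Oct4 and 2.81/6.22 in Oct4-L80A. Both columns of SKO, SKO-L80A, SKO+shBrg1 and SKO-L80A+Ga lay above both Flag columns, and the other 5 conditions overlapped Flag. The median signal of all genes was above both Flag columns in the same conditions, so this is not particular to Prrx2.

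The difference of Prrx2 from Flag was 1.05 in SKO (2.07-fold), 1.08 in SKO-L80A (2.11-fold) and 1.08 in SKO+shBrg1 (2.11-fold) on the log2 scale. The median of all genes had moved the same way, and relative to it the values were 0.54, 0.56 and 0.46, under 2-fold. They stood at percentiles 91.8, 92.4 and 89.1 of the differences of all genes. In column 2 alone, where the median of all genes moved less, it was under 2-fold in all 3. The relative value was 0.47 in Klf4, 0.31 in Sox2, 0.30 in SKO-L80A+Ga, 0.27 in SKO-L80A+Vc and 0.04 in Oct4-L80A. In the library labelled Oct4 it was 0.11, but -0.02 after quantile normalisation. Ptges, a prostaglandin synthase gene and the nearest neighbour in the table by the gap between gene spans, had relative differences of 0.03 in SKO, 0.08 in SKO-L80A and 0.20 in SKO+shBrg1.

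The ratio of the Prrx paralogs does not depend on the scaling of a column. Prrx2 over Prrx1 was 1.10/1.83 in SKO, 1.29/1.77 in SKO-L80A, 1.129/1.79 in SKO+shBrg1, 1.151/1.55 in SKO-L80A+Vc and 1.06/1.37 in SKO-L80A+Ga, against 0.811/0.864 in Flag. It was 1.32/1.37 in Sox2, 1.06/1.45 in Klf4 and 0.905/1.09 in Oct4-L80A, and 0.760/0.933 in the library labelled Oct4. In 8 of 9 factor conditions both columns were above both Flag columns, the library labelled Oct4 being the exception, and all 9 are set against the same Flag library. In Flag Prrx1 was thus the stronger of the pair, and in 7 of 9 factor conditions Prrx2 was, in both columns.

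**Figure D3:**
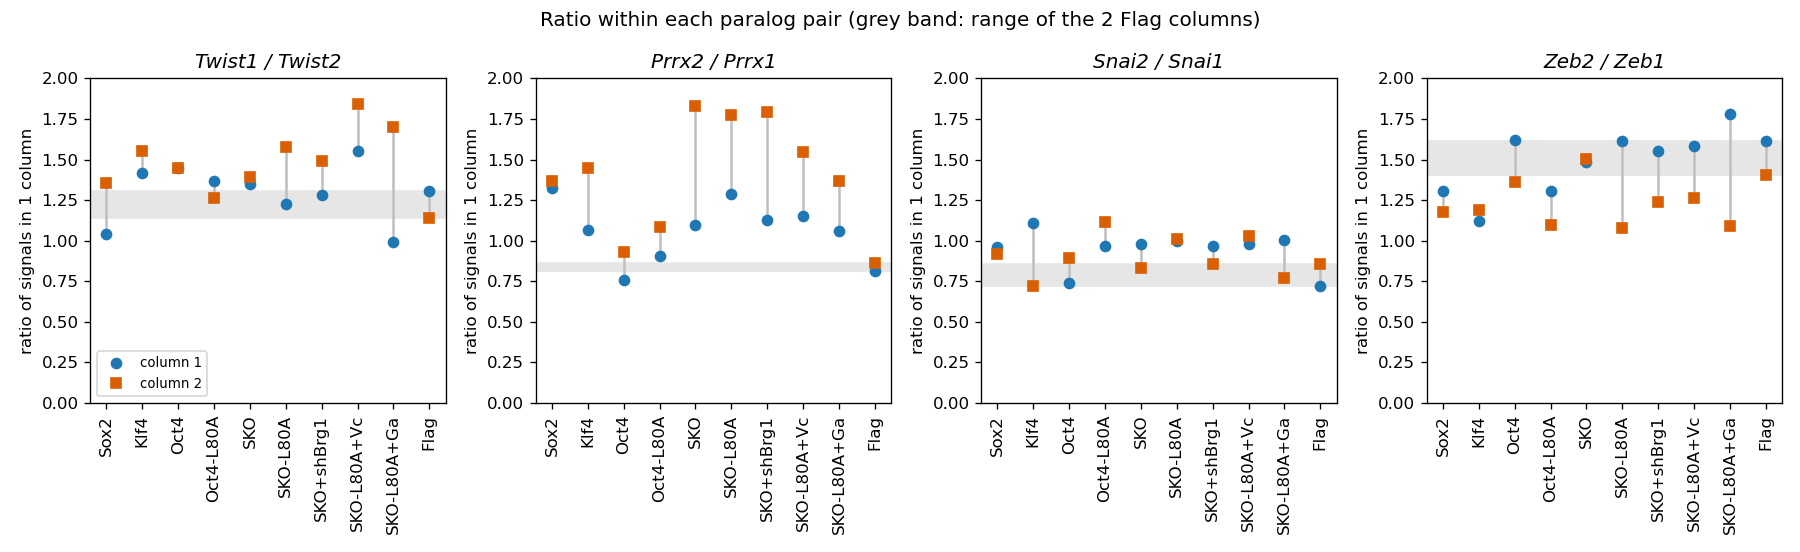
Ratio of the signals within each paralog pair (vertical axis, starting at 0) in the 10 conditions (horizontal axis). Circles and squares are the 2 columns, and the grey band spans the 2 Flag columns. For Prrx2 over Prrx1 both columns lie above the band in 8 of 9 factor conditions, and for Zeb2 over Zeb1 both lie below it in 3. The Prrx and Zeb genes are near or under the minimum signal in many columns, and other gene pairs were not counted.

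Snai1 (ENSMUSG00000042821, chromosome 2, 167538195 to 167542814), the Snail repressor of E-cadherin, had 9.19/18.6 in Sox2, 11.4/19.2 in Klf4, 16.6/20.6 in the library labelled Oct4 and 7.64/18.0 in Oct4-L80A. It reached 24.9/22.3 in SKO, 20.1/23.6 in SKO-L80A and 28.4/23.9 in SKO+shBrg1, and 16.4/14.4 in SKO-L80A+Vc and 18.8/20.5 in SKO-L80A+Ga, against 13.3/19.9 in Flag. SKO, SKO-L80A and SKO+shBrg1 had both columns above both Flag columns, and the other 6 overlapped Flag. The log2 differences were 0.53, 0.42 and 0.68 in these 3, none of them 2-fold, and 0.03, -0.10 and 0.06 relative to all genes. The lowest relative value was -0.30 in Oct4-L80A. As a level over the median signal, Flag was the highest condition for Snai1 too, and after quantile normalisation SKO had -0.06 and SKO+shBrg1 -0.04, so the sign of these small differences depended on the scaling.

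Snai2 (ENSMUSG00000022676, chromosome 16, 14705852 to 14709395), also called Slug, which acts in neural crest and mesenchymal cells, had 8.83/17.1 in Sox2, 12.6/13.8 in Klf4, 12.2/18.4 in the library labelled Oct4 and 7.39/20.1 in Oct4-L80A. It had 24.5/18.6 in SKO, 20.1/23.9 in SKO-L80A, 27.4/20.5 in SKO+shBrg1, 16.1/14.8 in SKO-L80A+Vc and 18.8/15.8 in SKO-L80A+Ga, against 9.53/17.0 in Flag. The same 3 combined conditions as for Snai1 were clear of Flag. Their log2 differences of 0.74, 0.77 and 0.89 were under 2-fold on average, although past it in column 1 alone, and became 0.23, 0.26 and 0.27 relative to all genes. As a level over the median signal, Snai2 had the narrowest range of the 8 genes. Its highest and lowest conditions were 0.22 apart on the log2 scale, which stood at percentile 3.39 of the 11447 genes with a mean signal of at least 6.92, and the columns of all 9 factor conditions overlapped those of Flag on that scale. The ranges of the other 7 genes ran between 0.33 for Snai1 and 0.62 for Twist2, against a median of 0.43 for those 11447 genes.

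The ratio of Snai2 over Snai1 was 0.999/1.01 in SKO-L80A, 0.980/1.03 in SKO-L80A+Vc, 0.962/0.918 in Sox2, 0.965/0.859 in SKO+shBrg1 and 0.968/1.12 in Oct4-L80A, against 0.719/0.854 in Flag. These 5 conditions had both columns above both Flag columns, and the other 4 overlapped them. For the Twist pair, Twist1 over Twist2 was 1.55/1.84 in SKO-L80A+Vc, 1.42/1.55 in Klf4, 1.45/1.45 in the library labelled Oct4 and 1.35/1.39 in SKO, against 1.305/1.14 in Flag. Those 4 were above both Flag columns, and the other 5 were not clear of them.

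Zeb1 (ENSMUSG00000024238, chromosome 18, 5591327 to 5775468), a repressor of E-cadherin and of epithelial microRNA genes, had 3.90/7.66 in Sox2, 5.56/5.76 in Klf4, 4.25/6.36 in the library labelled Oct4 and 2.56/6.04 in Oct4-L80A. The combined conditions had 6.60/6.46 in SKO, 4.59/9.11 in SKO-L80A, 6.82/8.50 in SKO+shBrg1, 4.85/6.62 in SKO-L80A+Vc and 5.26/6.38 in SKO-L80A+Ga, against 3.44/6.07 in Flag. SKO and SKO+shBrg1 were clear of Flag, and 7 conditions overlapped it. With log2 differences of 0.50 in SKO and 0.72 in SKO+shBrg1, the gene stayed under 2-fold, and relative to all genes it had -0.00 and 0.10. After quantile normalisation these were -0.27 in SKO and -0.17 in SKO+shBrg1. The highest relative values were 0.34 in Sox2, where both columns lay above Flag also as levels over the median signal, and 0.28 in SKO-L80A+Vc.

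Zeb2 (ENSMUSG00000026872, chromosome 2, 44983512 to 45117442), its paralog with roles in neural crest, had 5.11/9.04 in Sox2, 6.25/6.85 in Klf4, 6.89/8.68 in the library labelled Oct4 and 3.36/6.63 in Oct4-L80A. In SKO it had 9.82/9.72, in SKO-L80A 7.42/9.85, in SKO+shBrg1 10.6/10.5, in SKO-L80A+Vc 7.69/8.35 and in SKO-L80A+Ga 9.37/6.97, against 5.56/8.53 in Flag. As for Zeb1, SKO and SKO+shBrg1 were clear of Flag and 7 conditions overlapped it. Relative to all genes, the lowest value of Zeb2 was -0.37 in Oct4-L80A and the highest 0.19 in SKO-L80A+Vc. Zeb2 over Zeb1 was 1.31/1.18 in Sox2, 1.12/1.19 in Klf4 and 1.31/1.10 in Oct4-L80A, below both Flag columns of 1.62/1.41. The other 6 conditions were not clear of Flag.

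For all 8 genes most of the order of the conditions was not resolved beyond the columns. Of 72 pairs of conditions next to each other in the order of a gene's mean signal, 69 had overlapping columns. As levels over the median signal, 63 of 72 overlapped. In that second order, Flag was the highest of the 10 conditions for Twist1, Twist2, Prrx1 and Snai1, with 8 of 9 factor conditions clear below it in each case. For Prrx1 and Snai1 this does not hold as differences relative to all genes, which were above 0 in some conditions. All 9 factor conditions are set against the same Flag library. How many of all genes have Flag highest in this way was not counted, so it cannot be called particular to these genes. The 10 fibroblast markers also had a negative median difference from Flag relative to all genes in 9 of 9 factor conditions, between -0.36 in Klf4 and -0.08 in the library labelled Oct4, and -0.21 in SKO. Between 1 of the 10 (Sox2) and 5 (SKO-L80A) were above 0, so the markers did not all move alike. The part of the markers in these values was not tested.

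The direct comparisons set libraries side by side that by their labels differ in the L80A mutation, shBrg1, vitamin C or Gadd45a. The signal over the factor genes differed as well. Over Pou5f1 it was 15.4/27.5 in SKO-L80A, 10.2/9.35 in SKO, 8.27/6.79 in SKO+shBrg1, 8.59/10.4 in SKO-L80A+Vc and 11.0/14.1 in SKO-L80A+Ga. In the same order Sox2 had 38.5/51.8, 72.2/59.8, 61.5/43.6, 22.0/22.5 and 28.6/28.0. Klf4 had 62.6/83.5, 78.5/66.6, 74.8/58.2, 39.9/39.7 and 45.7/45.1. The part of these differences in the comparisons was not tested. Between Oct4-L80A and the library labelled Oct4, 0 of 8 genes passed the size rule, against 0% of all genes higher and 0.779% lower (0.00911% and 0.2% relative to their median), and the median of all genes was at -0.40. Relative to it, Twist2 had the highest value, 0.27, and Zeb2 the lowest, -0.30. Since the library labelled Oct4 also carried signal over Sox2, this comparison cannot be told apart from one between Oct4-L80A and Oct4 with Sox2.

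In SKO-L80A against SKO, 0 of 8 genes passed, against 0.00911% of all genes higher and 0% lower. The differences of the 8 genes ran between -0.19 for Zeb2 and 0.04 for Twist1, and Prrx2 differed by 0.03, with a median of all genes of -0.00. In SKO+shBrg1 against SKO, 0 of 8 passed, against 0.00455% higher and 0% lower. The differences there ran between 0.03 for Prrx1 and 0.22 for Zeb1, with a median of all genes of 0.09. Relative to it, Prrx1 had -0.07, Prrx2 -0.06 and Zeb1 0.13.

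In SKO-L80A+Vc against SKO-L80A, 0 of 8 genes passed, against 0% of all genes higher and 0.469% lower (0% and 0.00911% relative to them). The signal of all genes was lower there, with a median of -0.49, and Prrx2 had -0.79, Prrx1 -0.61 and Twist2 -0.60. Relative to all genes, the Zeb genes had the highest values, 0.40 for Zeb2 and 0.30 for Zeb1, and Prrx2 the lowest, -0.30. In SKO-L80A+Ga, where no gain over Gadd45a was seen on the deposited scale, against SKO-L80A, 0 of 8 passed, as did 0% of all genes in either direction. Prrx2 again had the lowest relative value, -0.28, and Zeb2 the highest, 0.17. Both of these comparisons use the same SKO-L80A library.

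Other genes of the same program were read from 5 lists, all of whose genes were in the table. Their counts against Flag stand beside a background of 6.24% of all genes called higher in SKO, 6.28% in SKO-L80A and 10.1% in SKO+shBrg1. It was 0.751% in Klf4, 0.87% in SKO-L80A+Vc and 1.64% in SKO-L80A+Ga. This background also counts genes under the minimum signal, which cannot be called. Of 30 related mesenchymal factors, 1 was higher in SKO than in Flag (Scx, a tendon factor, with 12.2/8.52 in SKO against 2.06/3.58 in Flag). In SKO-L80A 2 of 30 were higher, Scx and Msc, a helix-loop-helix repressor of muscle genes, which had 5.92/8.79 in SKO-L80A against 1.52/3.002 in Flag. In SKO+shBrg1 5 of 30 were higher, among them Scx, Msc and the craniofacial homeobox gene Alx1, and Scx and Msc also passed relative to all genes. None of the 30 was lower in the comparisons with Flag, and the counts in SKO and SKO-L80A are about those the background gives. The median of this list relative to all genes was -0.01 in SKO, 0.12 in SKO-L80A and 0.06 in SKO+shBrg1.

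None of the 26 dimer partners, corepressors and stability regulators, such as the E protein gene Tcf3 and the corepressor gene Ctbp1, passed the rule in any of the 14 comparisons. Their relative median lay between -0.21 in Klf4 and 0.04 in the library labelled Oct4. Of 22 inducers of the transition to mesenchyme, 19 reached the minimum signal against Flag in SKO, 19 in SKO-L80A and 20 in SKO+shBrg1. The background over all genes is therefore not like for like with this list. Of the 22, 4 were higher in SKO, 4 in SKO-L80A and 5 in SKO+shBrg1 than in Flag, and 1 in Klf4. That gene was Pdgfb, the platelet growth factor B chain, with 5.62/10.00 in Klf4 against 2.23/3.16 in Flag, and it alone of the inducers also passed relative to all genes in SKO (1.05), SKO-L80A (1.09) and SKO+shBrg1 (1.01). Notch1, a receptor gene, was higher in these 3 conditions, and was called lower when Oct4-L80A was set against the library labelled Oct4 (-1.03).

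Of 24 mesenchymal effector genes, 3 were higher in SKO than in Flag: Itga5 and Itgb1, integrins that bind fibronectin, and Acta2, the actin of myofibroblasts. In SKO-L80A and in SKO+shBrg1 4 were higher, among them the receptor kinase gene Axl, and 0 of the effector genes passed relative to all genes in these 3 conditions. In the library labelled Oct4 Acta2 was the 1 effector gene called higher, and in SKO-L80A+Ga it was Itga5, neither of them relative to all genes. Relative to all genes alone, Lox was lower in the library labelled Oct4 (-1.05) and Thy1, a surface protein gene of fibroblasts, was higher in Oct4-L80A (1.12). Lox, which crosslinks collagen, was lower in SKO-L80A+Vc, with 9.40/9.46 against 15.3/26.5 in Flag, and in Sox2, with 4.73/11.1. It was the 1 effector gene called lower in each.

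The 30 epithelial genes known as targets of Snail and Zeb repression had the highest median relative to all genes among the 6 lists of the program, the 8 genes included, but lists of other cell types were as high or higher. In SKO the median was 0.19, against 0.41 for the 5 neural markers. In Klf4 it was 0.37, against 0.61 for the 5 endothelial markers, and in SKO-L80A+Vc it was 0.31, against 0.39 for them. Called higher than in Flag were 5 of the 30 in SKO, 6 in SKO-L80A, 6 in SKO+shBrg1, 3 in SKO-L80A+Vc, 2 in SKO-L80A+Ga and 1 in Klf4. None was called lower in the 9 factor conditions, but few could be, since a lower call needs the minimum signal in Flag. In Sox2 against Flag 4 of the 30 reached it in either condition, and in Oct4-L80A against Flag 3 did. The absence of lower calls is therefore no result about this list. Cldn3, a tight junction claudin gene, had 13.6/8.68 in SKO, against 1.66/2.03 in Flag. Dsp, the desmosome gene desmoplakin, had 12.3/12.2 in SKO and Krt8, a simple epithelial keratin gene, 9.11/7.26, against 2.75/5.07 for Dsp and 1.68/3.14 for Krt8 in Flag. These 3 genes also passed relative to all genes in SKO, SKO-L80A, SKO+shBrg1 and SKO-L80A+Vc. They are named for having the largest change past the rule and do not stand for the list. In SKO 21 of the 30 were above 0 relative to all genes, and the others were not. The E-cadherin gene Cdh1 had 1.56/2.43 in SKO against 1.36/1.86 in Flag, under the minimum signal. The 8 transcription factor genes had medians of -0.01 in SKO, -0.09 in Klf4 and 0.09 in SKO-L80A+Vc. Against Flag, 3 of the 30 epithelial genes reached the minimum signal in Oct4-L80A, 5 in Klf4, 10 in SKO and 11 in SKO-L80A. The medians of this list thus rest mostly on genes under that minimum. Of the 26 dimer partners, 25 reached it in Klf4 and 26 in SKO. The difference between the lists was not tested.

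**Figure D4:**
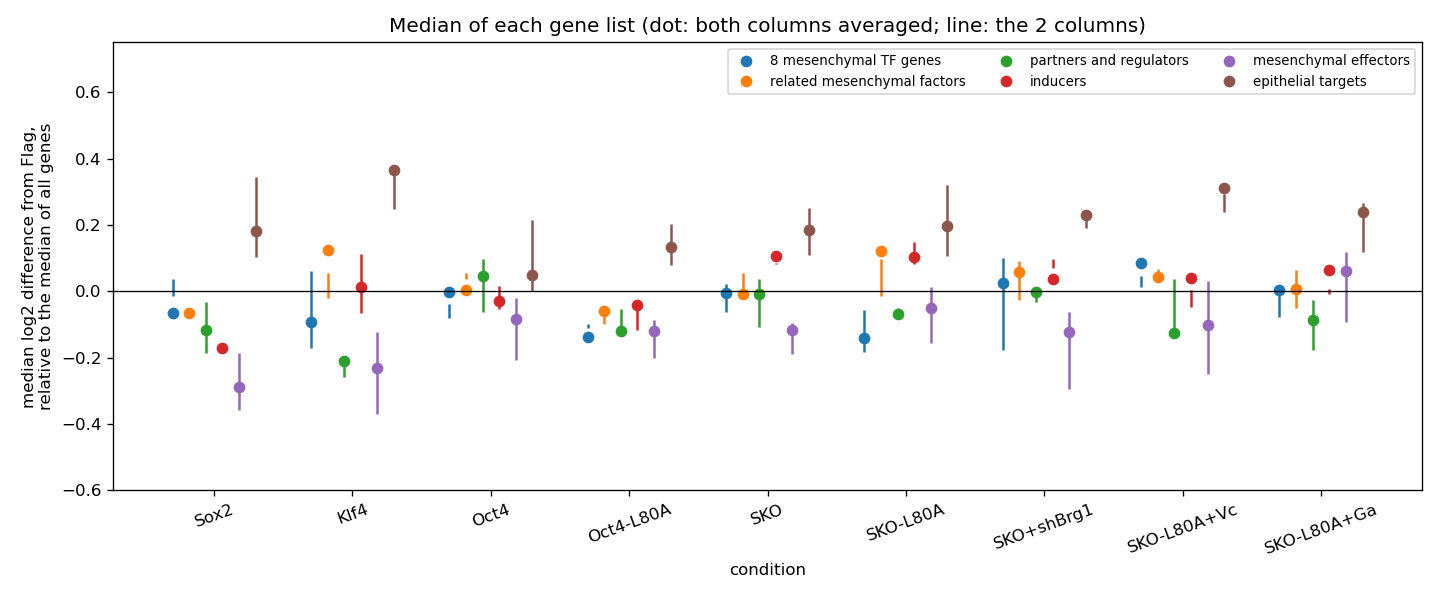
Median log2 difference from Flag relative to the median of all genes (vertical axis) for the 8 genes and 5 lists, in colour, in the 9 factor conditions (horizontal axis). Dots are medians of the average of both columns and lines join the medians of the 2 columns, which need not enclose the dot. Of the 30 epithelial targets, 3 (Oct4-L80A) to 11 (SKO-L80A) reach the minimum signal, so their medians rest mostly on genes under it. The epithelial targets have the highest median of these 6 lists in 9 of 9 conditions, although in the library labelled Oct4 the 0.05 is level with 0.04 for the dimer partners and lies below them in column 1 (-0.00 against 0.10), and the 8 transcription factor genes stay between -0.14 and 0.09.

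Within the 8 genes, levels over the 10 conditions (log2, over the median signal) were most positively correlated in the Twist and Zeb pairs. Pearson's r was 0.78 for Twist1 and Twist2 (0.69 and 0.55 in the single columns) and 0.70 for Zeb1 and Zeb2 (0.77 and 0.49). For the Prrx pair it was -0.57, but 0.07 and -0.48 in the single columns, and for the Snai pair -0.32. These coefficients rest on 10 conditions that share factors and differ in column scale, and are given as a description.

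The genes of the table whose pattern was most like that of a member were ranked by the same measure among 11447 genes with a mean signal of at least 6.92. For Twist2 they were Spry1, an inhibitor of growth factor receptor signalling (r of 0.97, 0.96 and 0.87 in the single columns), Plxnd1 (0.97) and Sox9 (0.95, 0.86 and 0.89 in the single columns). For Twist1 they were Srsf1 (0.97), Atf4 (0.96) and Cacybp (0.94), for Prrx1 Ext1 (0.97), Fam46a (0.96) and Fam120b (0.96), and for Prrx2 Rab6b (0.91), Sstr2 (0.90) and Ntn1 (0.88). Snai1 had Znhit2 (0.94) and, with 1 shared start region, Tmem169 and Pecr (0.94 each), and Snai2 had Ift74 (0.92), Mkrn1 (0.88) and Gde1 (0.87). For Zeb1 they were Anapc7 (0.97), Rims2 (0.91) and 2700049A03Rik (0.89), and for Zeb2 they included Jmjd4 (0.90) and Snap47 (0.90). These are the highest values among 11447 genes over only 10 conditions, and every r given was lower in both single columns. The single columns gave 0.18 and 0.34 for Gde1, 0.44 and 0.17 for Mkrn1, 0.33 and 0.35 for Ntn1, 0.84 and 0.32 for Ext1, and 0.69 and 0.46 for Srsf1. They gave 0.75 and 0.31 for both Jmjd4 and Snap47, which may thus not be separate patterns.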

How the data were processed

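The deposited table held ATAC-seq density signal for 21965 genes in 20 columns, 2 for each of 10 conditions with 1 library each. The authors made these signal values before deposit, but the sources used here do not say which window around a gene or which scaling was used. Build mm10 is named in the submitters' processing notes, as are deepTools, MACS2 2.1.0 and Bowtie2 2.2.5, then Picard, bedtools 2.25.0, SAMtools 1.3.1, cutadapt 1.13, DESeq2 1.22.2 and Trimmomatic 0.35, with no role for each. Read depth is therefore unknown, and no counting interval is given. Column sums ran between 112439 and 370390, and the 2 columns of a condition correlated across genes with r of 0.979 to 0.992 on the log2 scale. What separates the columns is not stated, so they were averaged and counted as 1 sample.

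Differences were computed as log2 of signal plus 0.138, with Python 3.11.15, numpy 2.4.6, pandas 2.3.3, scipy 1.17.1 and matplotlib 3.10.9. Such a difference understates the change of low genes. A difference relative to all genes subtracts the median of all genes' differences, of a single column or of the averages, while a level over the median signal subtracts the median log2 signal of the column. The calling script was tested on simulated data. With 1 library per condition there is no residual error, so calls rest on size and carry no p-value. The 8 genes, the gene lists and the size rule were chosen with earlier results of these data known, and the paralog ratios, the check of shared starts and the overlaps in order after the values had been seen. Named genes are the 8, the 3 genes most like each in pattern, and at most 3 genes of a list per comparison with the largest change past the rule; 1 gene that the rule names is not reported here. Other settings were 7 listed at the start and 2 added after seeing the data. Gene positions and promoters are RefSeq's for GRCm38.p6, matched by symbol.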

Additional observations from a re-analysis of the deposited data

How the results depend on the processing

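The 3 calls of Prrx2 over Flag rest on the scaling and on column 1. In SKO, SKO-L80A and SKO+shBrg1, where 1 of the 8 genes was called higher, 0 were called relative to the median of all genes, after quantile normalisation, in column 2 alone, relative to the median of genes at the minimum signal and relative to a lowess trend with mean signal. With a pseudocount 4 times larger, 0 were called in SKO. In column 1 alone, where all genes moved further from Flag, 2 were called higher in SKO, 2 in SKO-L80A, 3 in SKO+shBrg1 and 1 in SKO-L80A+Ga, and 2 lower when Oct4-L80A was set against the library labelled Oct4. The other comparisons and settings kept 0 calls, and leaving out the minimum signal or a pseudocount 4 times smaller moved no count. The lowess trend and the median of genes at the minimum were added after seeing the data. Of the 112 single differences, 37 moved by more than the SD of the 2 columns relative to all genes, 53 after quantile normalisation, 50 with the lowess trend and 57 with genes at the minimum. No called value changed sign. No paired analysis was possible because each condition has 1 library and the labels give no replicate numbers; for the same reason no replicate could be left out.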

Other observations

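Some genes near or related to the 8 were read after their values had been seen. Snai3, the remaining Snail family gene, had a signal between 1.88 and 6.02 in the factor conditions, against 2.82 and 3.61 in the Flag columns, under the minimum of 6.92 in every column. Hdac4, a histone deacetylase gene 80745 bases from Twist2, had differences from Flag between -0.37 in Klf4 and -0.08 in the library labelled Oct4, relative to all genes, in comparisons that share the Flag library. Hdac9, 87749 bases from Twist1, lay between -0.57 in Klf4 and 0.51 in SKO-L80A.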
